A study of Homo sapiens with 8 samples.

Results

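The genes described here are the cytokine genes IL6 and LIF with the receptor genes IL6R and IL6ST, the interleukin-1 family genes IL1A, IL1B and IL18 with the receptor gene IL1R1, and the colony-stimulating factor genes CSF1 and CSF2, in the renal cell carcinoma (RCC) line 786-O. The list names 10 genes, and a gene was taken where a transcript cluster of the array carries its symbol alone, with the cluster of the highest mean signal standing for it. By this rule 9 of the 10 genes were measured, of 18417 genes with such a cluster, and CSF2 was not analysed here. The list was drawn up with the differences between VHL+ and VHL- cells known, and its rule states that IL18 runs opposite to the rest. Those differences are therefore given as descriptions, with no p-value. In these data IL6 was lower with VHL in both oxygen conditions and CSF1 under normoxia. IL6R and IL1R1 had higher VHL+ arrays in both conditions like IL18, and IL6ST had them under hypoxia only. LIF, IL1A and IL1B lay near no difference, so that the wording of the rule held for some of the genes only.

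786-O cells have lost functional von Hippel-Lindau protein (VHL), the part of a ubiquitin ligase that recognises the hydroxylated alpha subunits of the hypoxia-inducible factors. The 4 groups were untransfected 786-O cells (VHL-) under normoxia, untransfected 786-O cells under hypoxia, 786-O cells transfected with VHL (VHL+) under normoxia and VHL+ cells under hypoxia, each kept for 24 h without any other treatment and, under hypoxia, at 1% O2. Each group had 2 arrays (8 in all), which the labels call biological replicates. No source used here says how far the cultures were separate, so that p-values measure the spread between these arrays. The methods name stable VHL transfectants, and the paper's figure legend on VHL expression speaks of bulk cultures. Because the VHL- cells carried no vector, the effects of VHL, of transfection and of selection cannot be told apart.

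Interleukin-6 binds its receptor subunit IL6R and then gp130, the product of IL6ST, which activates JAK kinases and STAT transcription factors, whereas LIF binds LIFR together with gp130. Interleukin-1 alpha and beta act on IL1R1 and lead through MYD88 and IRAK kinases to NF-kB, and the precursors of interleukin-1 beta and interleukin-18 are cleaved by caspase-1. Colony-stimulating factor 1 supports monocytes and macrophages through CSF1R. Renal carcinoma cells are known as a source of interleukin-6.

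The log2 signal of VHL itself was 8.23 to 8.51 on the VHL- arrays and 8.85 to 9.16 on the VHL+ arrays, so that the arrays of both cell types did not overlap. Array medians ran from 6.6 to 6.9 on the log2 scale. Of 7 renal markers, 5 lay above the median on every array, among them PAX8 and KRT8, and LRP2 lay below it on all 8. Of 5 leukocyte markers, PTPRC, CD14, CD3E and MS4A1 lay below the median on all 8 arrays and CD68 above it. The mean log2 signal of the 5 was 6.69 to 6.99 in VHL- cells and 6.72 to 6.995 in VHL+ cells. Both endothelial markers, and PDGFRB and DCN but not COL1A1 among 3 fibroblast and pericyte markers, were below the median on all arrays. In RNA of whole cultures, fewer cells that express a gene and less RNA per cell cannot be told apart.

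Among the ligands of the gp130 receptors, IL6 was the gene that separated VHL- from VHL+ cells most widely of all 9 genes. Its log2 signals were 10.54 and 10.08 in normoxic VHL- cells, 10.32 and 10.22 in hypoxic VHL- cells, 7.63 and 7.30 in normoxic VHL+ cells, and 8.29 and 7.90 in hypoxic VHL+ cells. All 4 VHL- arrays lay above all 4 VHL+ arrays. The difference of VHL+ from VHL- cells was -2.85 (SE 0.17), 7.20-fold lower, under normoxia and -2.18 (SE 0.17), 4.52-fold lower, under hypoxia. Within the VHL+ cells both hypoxic arrays lay above both normoxic ones, while the arrays of the VHL- cells overlapped between the oxygen conditions.

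The start region of IL6 is shown because IL6 had the largest difference of the 9 genes, and that of IL6R because the receptor gene had the opposite one. The windows hold 250 bases before to 50 bases after the annotated start of transcription (RefSeq, GRCh38.p14), read on the strand of the gene. They were searched on both strands for GGG and TTTCC with any 2 bases between them, an NF-kB-type motif that 1.91% of 35116 such windows hold, for TGANTCA, an AP-1-type motif (7.71%), and for ACGTG (21.4%) and GCGTG (36.5%), the core of hypoxia response elements. None of these letter patterns overlaps another in the windows printed. A match is a match of letters only. Capitals mark it. IL6 has 1 NF-kB-type match that begins 73 bases before the start (chr7:22726950-22727249, plus strand), and IL6R has 1 AP-1-type match from base 38 after it (chr1:154405093-154405392, plus strand).
IL6: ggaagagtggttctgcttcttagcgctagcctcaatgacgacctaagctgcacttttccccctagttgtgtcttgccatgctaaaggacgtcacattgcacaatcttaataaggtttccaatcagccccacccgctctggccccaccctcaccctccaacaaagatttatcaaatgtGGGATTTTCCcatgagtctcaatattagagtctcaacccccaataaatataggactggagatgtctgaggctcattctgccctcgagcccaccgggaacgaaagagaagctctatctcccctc
IL6R: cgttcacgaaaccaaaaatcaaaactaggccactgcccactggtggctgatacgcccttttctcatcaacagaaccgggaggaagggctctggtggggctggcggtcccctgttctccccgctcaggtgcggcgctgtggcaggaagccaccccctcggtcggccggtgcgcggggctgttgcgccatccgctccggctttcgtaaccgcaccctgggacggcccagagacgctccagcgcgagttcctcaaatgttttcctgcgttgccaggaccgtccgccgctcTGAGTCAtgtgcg

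LIF, a cytokine that acts on many tissues, had VHL- and VHL+ arrays that overlapped. Its log2 signals were 7.71 and 7.96 in normoxic VHL- cells, 8.08 and 8.07 in hypoxic VHL- cells, 7.72 and 7.98 in normoxic VHL+ cells, and 8.24 and 8.03 in hypoxic VHL+ cells. The arrays of VHL- and VHL+ cells overlapped in both oxygen conditions, and the hypoxic arrays were the higher ones in both cell types. The difference of VHL+ from VHL- cells was 0.01 (SE 0.15) under normoxia and 0.07 (SE 0.15) under hypoxia.

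IL6R ran opposite to IL6 with VHL, and the other receptor genes, IL6ST and IL1R1, also had higher means in VHL+ cells. IL6R, which encodes the subunit that binds interleukin-6 itself, had log2 signals of 6.97 and 6.95 in normoxic VHL- cells, 6.85 and 6.999 in hypoxic VHL- cells, 7.19 and 7.48 in normoxic VHL+ cells, and 7.82 and 7.87 in hypoxic VHL+ cells. Every VHL+ array was above every VHL- array, and the hypoxic VHL+ arrays were the highest. IL6R was higher in VHL+ cells by 0.38 (SE 0.14, 1.30-fold) under normoxia and by 0.92 (SE 0.14, 1.90-fold) under hypoxia. For IL6ST, the gene of the shared signal transducer gp130, the log2 signals were 9.27 and 9.001 in normoxic VHL- cells, 9.41 and 9.60 in hypoxic VHL- cells, 9.09 and 9.61 in normoxic VHL+ cells, and 9.88 and 9.81 in hypoxic VHL+ cells. The hypoxic VHL+ arrays were above all others, and the normoxic arrays of the cell types overlapped. IL6ST differed by 0.22 (SE 0.17) under normoxia and by 0.34 (SE 0.17) under hypoxia.

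Of the 3 interleukin-1 family ligand genes, IL18 alone lay above an array median, and only in the VHL+ cells. IL18, a cytokine that induces interferon gamma in lymphocytes, had log2 signals of 6.24 and 6.45 in normoxic VHL- cells, 6.08 and 6.45 in hypoxic VHL- cells, 8.29 and 8.40 in normoxic VHL+ cells, and 7.37 and 7.46 in hypoxic VHL+ cells. The 4 VHL- arrays were all below their array's median and below all 4 VHL+ arrays, and the hypoxic VHL+ arrays lay between the VHL- arrays and the normoxic VHL+ arrays. In VHL+ cells IL18 was higher by 2.00 (SE 0.15, 3.99-fold) under normoxia and by 1.15 (SE 0.15, 2.22-fold) under hypoxia.

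IL1A and IL1B, the classical interleukin-1 genes, were below the median of every array. IL1A ran from 5.69 to 6.00 on the log2 scale, with 5.94 and 5.82 in normoxic VHL- cells, 5.75 and 5.72 in hypoxic VHL- cells, 5.84 and 5.86 in normoxic VHL+ cells, and 6.00 and 5.69 in hypoxic VHL+ cells. For IL1B these were 6.16 and 6.04, 5.91 and 5.97, 6.00 and 6.18, and 6.19 and 6.04, in the same order. The 4 VHL- and 4 VHL+ arrays overlapped for both genes, and the differences of VHL+ from VHL- cells lay between -0.03 and 0.17 (SE 0.14 each). Under hypoxia alone, the VHL+ arrays of IL1B lay above its VHL- arrays, by 0.17 in the mean. The median difference of all transcript clusters there was 0.16. A difference between such dim signals is harder to see on an array than one between bright signals.

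IL1R1, the receptor gene through which both interleukin-1 proteins signal, had arrays that parted by oxygen over all 8 arrays, and by VHL within each oxygen condition. It had log2 signals of 9.36 and 9.35 in normoxic VHL- cells, 8.69 and 8.87 in hypoxic VHL- cells, 9.66 and 9.64 in normoxic VHL+ cells, and 9.25 and 9.07 in hypoxic VHL+ cells. The hypoxic arrays were below the normoxic arrays in each cell type, and all 4 hypoxic arrays were below all 4 normoxic ones. The difference of VHL+ from VHL- cells was 0.30 (SE 0.14) under normoxia and 0.38 (SE 0.14) under hypoxia. RefSeq gives IL1R1 4 start windows, and the one that follows is shown because it holds the ACGTG core, which begins 111 bases before the start and lies on the opposite strand, so that the capitals read CACGT (chr2:102104354-102104653, plus strand). Another of the windows holds GCGTG, and the remaining windows hold none of the patterns. The windows of IL1A hold ACGTG and GCGTG as well as AP-1-type matches, and 21.4% of all windows hold ACGTG. The core is thus not particular to IL1R1.
IL1R1: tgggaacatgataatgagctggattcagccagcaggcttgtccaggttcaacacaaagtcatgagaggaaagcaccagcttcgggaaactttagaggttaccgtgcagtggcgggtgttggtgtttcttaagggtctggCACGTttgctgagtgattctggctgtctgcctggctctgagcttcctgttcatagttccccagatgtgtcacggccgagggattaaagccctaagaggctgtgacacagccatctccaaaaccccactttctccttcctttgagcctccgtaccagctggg

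CSF1, the macrophage growth factor, was low in 1 group only. Its log2 signals were 10.00 and 10.20 in normoxic VHL- cells, 10.00 and 10.23 in hypoxic VHL- cells, 8.99 and 9.41 in normoxic VHL+ cells, and 9.96 and 10.09 in hypoxic VHL+ cells. The normoxic VHL+ arrays were below the other 6 arrays, and those 6 overlapped between their groups. CSF1 was lower in VHL+ cells by 1.87-fold (-0.90, SE 0.16) under normoxia, and the difference under hypoxia was -0.09 (SE 0.16).

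**Figure D1:**
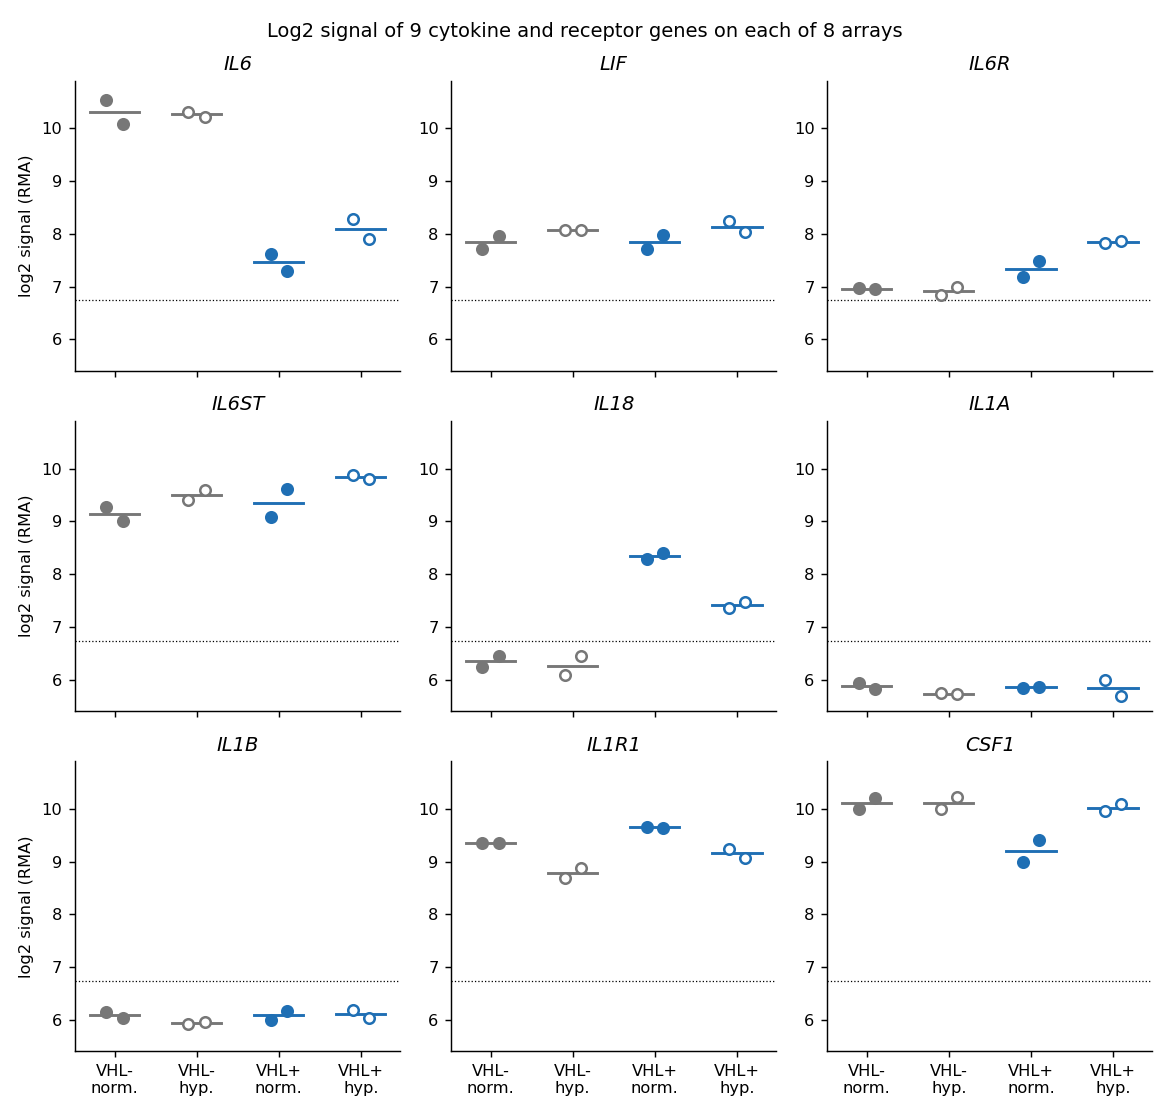
Log2 signal (RMA) of the 9 genes on each of the 8 arrays, 1 panel per gene with the 4 groups on the horizontal axis, each point an array and each bar the mean of 2, and the dotted line the mean of the array medians. IL6 is at 10.08 to 10.54 in VHL- cells and 7.30 to 8.29 in VHL+ cells, IL18 is at 6.08 to 6.45 and 7.37 to 8.40, and CSF1 is below 9.5 in the normoxic VHL+ cells only.

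Ordered by group mean, IL6 ran from VHL- normoxia (10.31) and VHL- hypoxia (10.27), whose arrays overlapped, to VHL+ hypoxia (8.10) and VHL+ normoxia (7.47), each apart from its neighbours. IL18 had the order VHL+ normoxia (8.34), VHL+ hypoxia (7.41), VHL- normoxia (6.35) and VHL- hypoxia (6.27), with overlap between the last groups only. In IL6R the VHL+ groups came first, with hypoxia (7.85) above normoxia (7.34), and the VHL- groups overlapped. All neighbours in the order of IL1R1 were apart, and for CSF1 only the last group was.

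Over both oxygen conditions, 3 of the 9 genes had VHL+ and VHL- arrays that did not overlap, IL6R and IL18 with higher and IL6 with lower VHL+ arrays, where 10.1% of all 33297 transcript clusters had higher and 3.34% lower VHL+ arrays by this measure. As a description only, 3 of 9 genes were past an adjusted p of 0.05 by limma in VHL+ vs. VHL- cells under normoxia, IL18 as higher and IL6 and CSF1 as lower, and 4.77% of all transcript clusters were called (2.07% higher and 2.69% lower). Under hypoxia 3 of 9 genes were past it as well, IL18 and IL6R as higher and IL6 as lower, beside 11.6% of all transcript clusters (10.3% higher and 1.31% lower). Since these differences chose the genes, these counts follow from the choice and nothing is read from them. The median difference of the 9 genes was 0.01 under normoxia and 0.17 under hypoxia, against -0.04 and 0.16 over all transcript clusters. After quantile normalization, which sets the median of all clusters to within 0.01 of 0, IL6 differed by -2.84 under normoxia and -2.43 under hypoxia, IL18 by 2.05 and 0.94, IL6R by 0.42 and 0.69, and CSF1 by -0.93 and -0.37. By that scaling the sign turned for LIF under hypoxia (-0.19) and for IL1A and IL1B under normoxia (0.01 and 0.05).

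**Figure D2:**
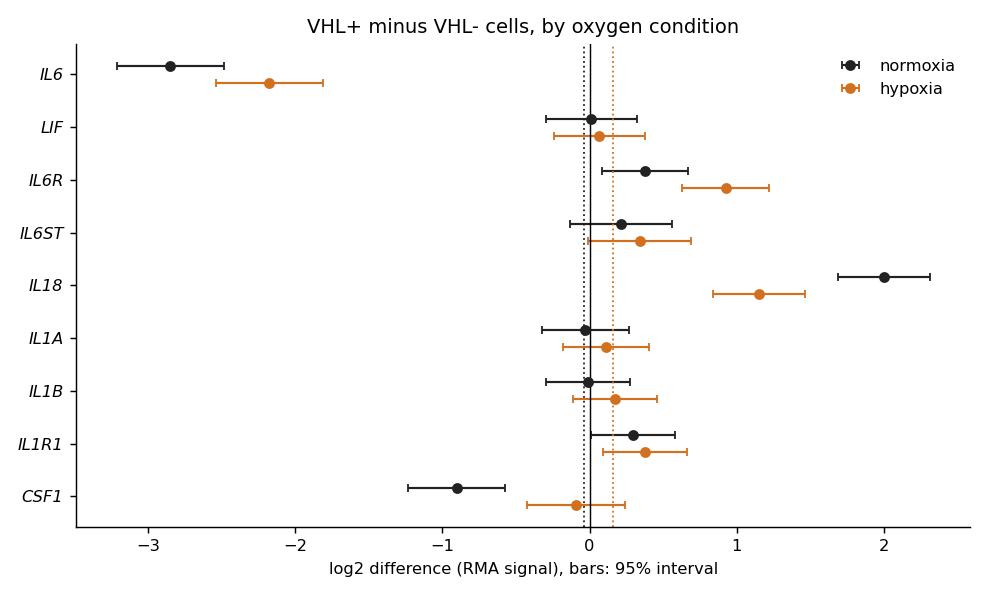
Difference of VHL+ from VHL- cells in log2 signal for the 9 genes under normoxia and under hypoxia, with 95% intervals from the fit over 8 arrays and dotted lines at the median difference of all transcript clusters. IL6 stands at -2.85 and -2.18 and IL18 at 2.00 and 1.15, and CSF1 is at -0.90 under normoxia and -0.09 under hypoxia.

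The effect of oxygen was tested in each cell type without the replicate number, and results with it as a block, which differ in some calls, are given with the processing. The genes were chosen by their VHL differences, with calls for hypoxia also known, so these tests are not independent of the choice. In VHL- cells, 0 of the 9 genes passed (limma, adjusted p under 0.05), where 0.0661% of all transcript clusters did, and 2 of 9, IL1R1 and IL6ST, had an unadjusted p under 0.05, beside 5.3% of all clusters. The hypoxic VHL- arrays lay above the normoxic ones for 2 genes, LIF and IL6ST (2.47% of all clusters), and below them for 3, IL1A, IL1B and IL1R1 (45.5% of all clusters). IL6 differed by -0.04 in hypoxic VHL- cells (95% interval -0.40 to 0.32, limma adjusted p = 0.923) and CSF1 by 0.01 (-0.32 to 0.34, limma adjusted p = 0.975). IL1R1 differed by -0.57 (-0.86 to -0.29, limma adjusted p = 0.198). The difference of IL18 was -0.08 (-0.39 to 0.23), that of IL6R -0.03 (-0.33 to 0.26), that of LIF 0.23 (-0.07 to 0.54) and that of IL6ST 0.36 (0.02 to 0.71). The median of the 9 genes was -0.04, and that of all transcript clusters -0.12.

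In VHL+ cells, IL18 was lower and CSF1 higher under hypoxia. IL18 fell by 0.93 on the log2 scale (SE 0.15, 1.90-fold, limma adjusted p = 0.0113), and it was the only one of 33297 transcript clusters called lower in this comparison (0.003%). CSF1 rose by 0.82 (SE 0.16, 1.77-fold, limma adjusted p = 0.0401), beside 0.15% of all clusters called higher. In all, 2 of 9 genes and 0.153% of all transcript clusters were called, and 6 of 9 genes against 6.16% had an unadjusted p under 0.05. The normoxic VHL+ arrays of this comparison also entered the difference between VHL+ and VHL- cells that chose the genes, so these calls are not independent of the choice. Neither call was kept after quantile normalization (IL18 -1.07, adjusted p = 0.212, and CSF1 0.67, adjusted p = 0.295, limma), after median centring (adjusted p = 0.257 and 0.575) or without clusters below the median on every array (adjusted p = 0.110 and 0.197). IL18 did not pass without VHL+ hypoxia replicate 1 (-0.88, adjusted p = 0.999) or 2 (-0.98, adjusted p = 0.472), and CSF1 not without either of these arrays (0.89 and 0.76, adjusted p = 0.999 and 0.472) or VHL+ normoxia replicate 1 (0.61, adjusted p = 0.278), all by limma.

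The other genes did not pass in VHL+ cells in the fit without the replicate number. IL6 differed by 0.63 (95% interval 0.27 to 0.99, limma adjusted p = 0.285) and IL6R by 0.51 (0.22 to 0.81, limma adjusted p = 0.285). The value of IL6ST was 0.49 (0.14 to 0.84, limma adjusted p = 0.538), that of LIF 0.29 (-0.02 to 0.60) and that of IL1R1 -0.49 (-0.77 to -0.20, limma adjusted p = 0.292). The intervals of IL1A (-0.30 to 0.29) and IL1B (-0.26 to 0.31) span 0. Hypoxic arrays lay above normoxic ones for 5 genes, IL6, LIF, IL6ST, IL6R and CSF1, where 28% of all clusters did, and below them for 2, IL18 and IL1R1, where 2.38% did. The median of the 9 genes was 0.29, and that of all transcript clusters 0.09.

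**Figure D3:**
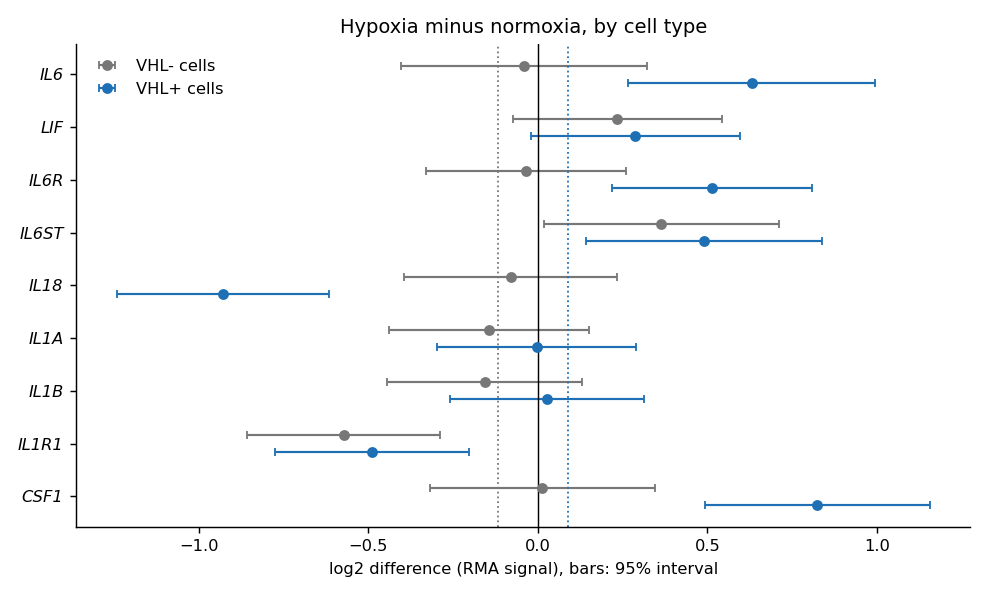
Difference of hypoxia from normoxia in log2 signal for the 9 genes in VHL- and in VHL+ cells, with 95% intervals and dotted lines at the median difference of all transcript clusters. In VHL+ cells IL18 (-0.93) and CSF1 (0.82) passed at an adjusted p under 0.05 as deposited but not after quantile normalization, and no gene passed in VHL- cells.

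Whether hypoxia acted differently in the 2 cell types was tested as an interaction, and 0 of 9 genes passed by limma, where 0.00601% of all transcript clusters did. At an unadjusted p under 0.05 there were 4 of 9 genes, IL6, IL6R, IL18 and CSF1, beside 5.61% of all clusters. The interaction also equals the VHL difference under hypoxia minus that under normoxia, the 2 comparisons that chose the genes. Its p-values and this count are therefore not independent of the choice, and nothing is read from the count. The hypoxia effect in VHL+ cells minus that in VHL- cells was -0.85 for IL18 (95% interval -1.29 to -0.41, limma adjusted p = 0.578) and 0.81 for CSF1 (0.34 to 1.28, limma adjusted p = 0.651). For IL6 it was 0.67 (0.16 to 1.18) and for IL6R 0.55 (0.13 to 0.97), both at a limma adjusted p of 0.651. Over all transcript clusters the median of this difference was 0.21, and over the 9 genes 0.14. That the calls of IL18 and CSF1 were made in VHL+ cells only was thus not shown to be a difference between the cell types.

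Over both cell types, IL1R1 fell under hypoxia by 0.53 on the log2 scale (SE 0.10, 95% interval -0.75 to -0.32, limma adjusted p = 0.0241). It was 1 of 9 genes called, beside 0.171% of all transcript clusters (0.0601% as lower), and 6 of 9 genes against 4.95% of all clusters had an unadjusted p under 0.05. The call was lost after quantile normalization (-0.56, adjusted p = 0.136), after median centring (-0.53, adjusted p = 0.0594), without clusters below the median on all arrays (adjusted p = 0.121) and without VHL+ hypoxia replicate 1 (-0.57, adjusted p = 0.327), all by limma. The other values were 0.43 for IL6ST (0.18 to 0.67, limma adjusted p = 0.202), -0.50 for IL18 (-0.79 to -0.22, limma adjusted p = 0.194), 0.42 for CSF1 (0.13 to 0.71, limma adjusted p = 0.413), 0.29 for IL6 (0.01 to 0.58), 0.26 for LIF (0.04 to 0.49) and 0.24 for IL6R (-0.01 to 0.49).

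Of 70 other genes of the same pathways, chosen by function, 64 were measured, and 28 of them lay below the median on all 8 arrays. The latter held 8 of 9 other interleukin-1 family ligands and antagonists (all but the interleukin-18 antagonist gene IL18BP). They also held 5 of 8 inflammasome genes, CASP1 and NLRP3 among them. The rest included 7 of 12 genes of colony-stimulating factors, related cytokines and their receptors. In VHL+ vs. VHL- cells under normoxia, 4 of the 64 genes (6.25%) passed, 1 higher and 3 lower, beside 4.77% of all transcript clusters. Under hypoxia 5 of 64 (7.81%) passed, 4 higher and 1 lower, beside 11.6% of all clusters. The median difference was -0.06 under normoxia and 0.14 under hypoxia. No gene of the 64 passed in any of the 4 comparisons of oxygen by limma. At an unadjusted p under 0.05 there was 1 of 64 in VHL- cells, beside 5.3% of all clusters, and 9 in VHL+ cells, beside 6.16%. For the difference between the cell types there were 3, beside 5.61%, and over both 5, beside 4.95%.

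Among the gp130 family, 1 of 10 genes passed under each oxygen condition, beside 4.77% of all transcript clusters under normoxia and 11.6% under hypoxia. LIFR, the receptor subunit for LIF, rose with VHL from 8.44 and 8.51 to 9.18 and 9.43 under normoxia (0.83, SE 0.15, limma adjusted p = 0.00247) and from 8.26 and 8.54 to 9.001 and 9.29 under hypoxia (0.74, SE 0.15, limma adjusted p = 0.00383). The VHL+ arrays were above the VHL- arrays in both. The value under normoxia was called after quantile normalization too (limma adjusted p = 0.0110), and that under hypoxia was not (0.47, limma adjusted p = 0.0616). Among 12 JAK, STAT and SOCS genes, STAT5B, a transcription factor of cytokine signalling, fell by 0.54 under normoxia (SE 0.15, limma adjusted p = 0.0380), from 8.004 and 8.24 to 7.58 and 7.59. PIAS3, an inhibitor of STAT proteins, rose by 0.54 under hypoxia (SE 0.13, limma adjusted p = 0.0126), from 8.06 and 8.21 to 8.68 and 8.67, which was not called after quantile normalization (0.27, limma adjusted p = 0.186).

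Of 13 genes of interleukin-1 and interleukin-18 receptors and their signalling, 2 were called under normoxia, beside 4.77% of all transcript clusters. Under hypoxia 3 of 13 were called, beside 11.6% of all clusters. IL1R2, the decoy receptor that binds interleukin-1 without signalling, fell with VHL under normoxia from 7.999 and 8.13 to 6.98 and 7.15 (-0.998, SE 0.15, limma adjusted p = 0.000326). IRAK2, a kinase-like adaptor of the same receptors, fell from 8.77 and 8.22 to 7.30 and 7.54 (-1.07, SE 0.19, limma adjusted p = 0.00151). Both genes had VHL+ arrays below the VHL- arrays under normoxia.

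Under hypoxia IRAK2 was lower by 0.58 (SE 0.19, limma adjusted p = 0.0493), with 8.85 and 8.47 in VHL- and 8.25 and 7.91 in VHL+ cells. IRAK1, a kinase recruited to MYD88, rose by 0.96 (SE 0.16, limma adjusted p = 0.000658), from 8.09 and 8.56 to 9.23 and 9.33, and was called after quantile normalization as well (0.69, limma adjusted p = 0.0209). IL18R1, the subunit that binds interleukin-18, rose by 0.54 (SE 0.15, limma adjusted p = 0.0232), with 6.11 and 6.37 in VHL- and 6.80 and 6.76 in VHL+ cells, close to or below the array medians. IL18R1 did not pass after quantile normalization (0.37, limma adjusted p = 0.121), nor did IRAK2 under either oxygen condition, though its difference was no smaller (-1.07, adjusted p = 0.0581 under normoxia and -0.84, adjusted p = 0.114 under hypoxia, limma). By that scaling, STAT5B (-0.56, limma adjusted p = 0.0311) and IL1R2 (-0.54, limma adjusted p = 0.0146) passed under hypoxia, which they did not as deposited. After median centring LIFR, IL1R2 and IRAK2 passed under normoxia and STAT5B did not (limma adjusted p = 0.104), and under hypoxia IRAK1 passed (limma adjusted p = 0.0413) and the others did not.

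Several of these calls were lost with an array left out, also where the difference stayed or grew. The calls under hypoxia were lost without VHL+ hypoxia replicate 1 and without VHL+ hypoxia replicate 2, each of which leaves 1 array in that group. Without replicate 1 the differences were 0.88 for LIFR, 0.53 for PIAS3, 0.52 for IL18R1, 1.01 for IRAK1 and -0.75 for IRAK2. Without replicate 2 they were 0.60, 0.54, 0.56, 0.91 and -0.41, in the same order. The hypoxia calls of PIAS3, IL18R1 and IRAK2 were also lost without VHL- hypoxia replicate 1, with differences of 0.46, 0.41 and -0.39. Under normoxia IRAK2 did not pass without VHL+ hypoxia replicate 1 or 2, arrays that do not enter its difference, which stayed at -1.07. STAT5B did not pass without VHL- normoxia replicate 2 (-0.42) or without VHL+ normoxia replicate 1 or 2 (-0.54 and -0.55). Nor did STAT5B pass without VHL+ hypoxia replicate 1 or 2, which leave its normoxic difference at -0.54. LIFR and IL1R2 passed under normoxia with each array left out in turn.

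**Figure D4:**
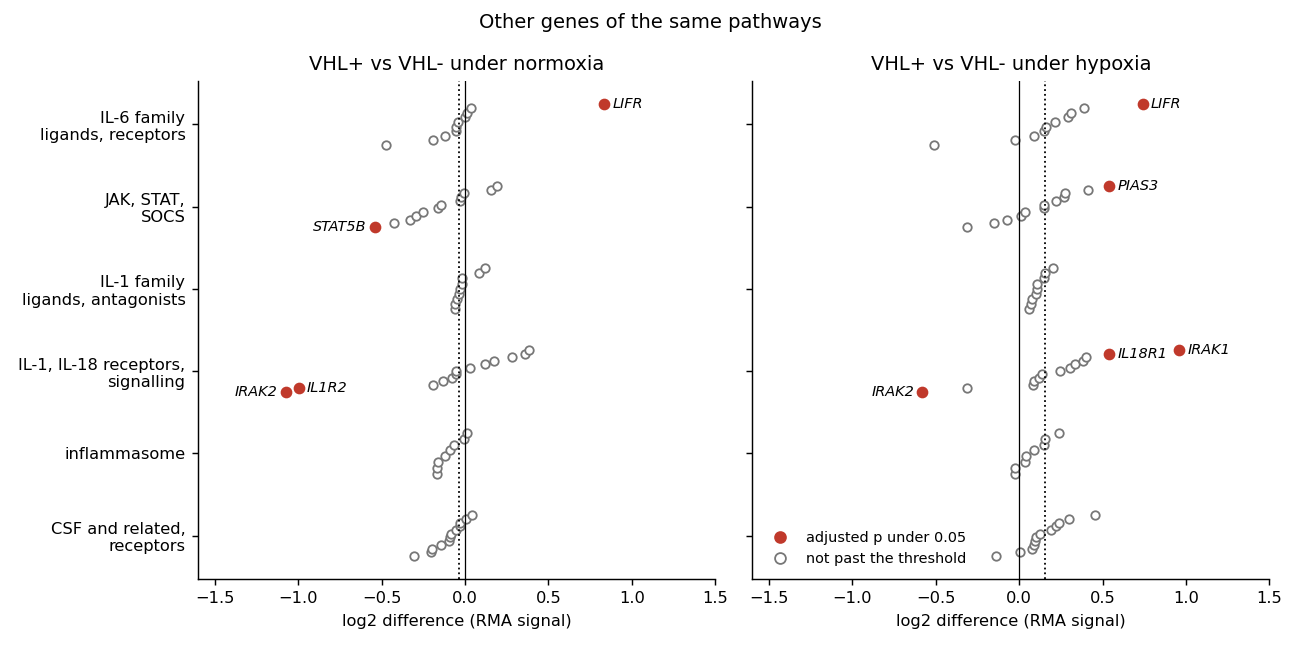
Difference of VHL+ from VHL- cells in log2 signal for 64 other genes of the pathways under normoxia and under hypoxia, 1 point per gene, in 6 groups by function, with dotted lines at the median of all transcript clusters. Filled points passed at an adjusted p under 0.05, 4 under normoxia (LIFR, STAT5B, IL1R2, IRAK2) and 5 under hypoxia (LIFR, PIAS3, IL18R1, IRAK1, IRAK2).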

How the data were processed

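Total RNA of VHL- and VHL+ 786-O cells, kept for 24 h under normoxia or hypoxia, had been hybridized to Affymetrix Human Gene arrays (8 arrays, 2 per group). The values deposited are signals on the log2 scale, 1 per transcript cluster, which the authors normalized by Robust Multichip Average (RMA) in Partek. The software version is not given in the sources used here. No column belonged to a sample outside the series. All 33297 transcript clusters were tested, of which 19460 carry 1 symbol in the array's annotation, 1754 several and 12083 none here, and 1 cluster stands for each gene (highest mean).

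Comparisons were contrasts of 1 limma 3.58.1 fit over the 4 groups in R 4.3.3, with 4 residual and 14.0 prior degrees of freedom. The effect of oxygen over both cell types was its coefficient beside that of VHL in a separate limma fit. Its intervals use the degrees of freedom of the fit over the 4 groups, which makes them slightly wider than its p-values imply. P-values were Benjamini-Hochberg adjusted over all clusters, with a threshold of 0.05, and intervals are 95% intervals. The number of arrays limits the precision. The fit was tested on simulated data with 200 changed clusters. Genes and lists were chosen with earlier results of these data known, calls for VHL and for hypoxia among them. Named are the genes of the list in every comparison, up to 4 called genes with the largest change of each other list and comparison, and the 5 genes most like IL6 and IL18 over the arrays. Alternatives were quantile normalization, median centring, dim clusters left out, the mean of a gene's clusters, the replicate number as a block, the methods' one-way test at an unadjusted p under 0.005 and adjusted, and each array left out in turn. Promoter windows were read from RefSeq (GRCh38.p14), where 7 of the 10 genes had one (11 windows). No window of IL18, LIF or CSF1 was used here.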

Additional observations from a re-analysis of the deposited data

How the results depend on the processing

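Under all scaling, filtering and leave-one-out settings, the VHL difference of IL6 ran from -3.07 to -2.62 under normoxia and from -2.43 to -1.98 under hypoxia, and that of IL18 from 1.90 to 2.10 and from 0.94 to 1.33. IL6R ran from 0.23 to 0.52 and from 0.69 to 1.00, and CSF1 from -1.12 to -0.69 under normoxia and from -0.37 to 0.026 under hypoxia, where its sign turned without VHL- hypoxia replicate 2. The counts of calls moved more. Of all transcript clusters, 1587 were called in VHL+ vs. VHL- cells under normoxia (2518 with the replicate block, 288 by the methods' one-way test at an unadjusted p under 0.005 and 1 by it after adjustment), and 473 to 2551 with an array left out. Under hypoxia 3873 were called (1831 after quantile normalization, 1423 after median centring, 400 and 1 by the one-way test), and 256 to 5090 with an array left out. For hypoxia in VHL- cells the count was 22 (0 after quantile normalization, 0 after centring, 2 without dim clusters, 220 with the block, 253 and 0 by the one-way test, 2 to 282 with an array left out). In VHL+ cells it was 51 (1, 1, 8, 336, 121 and 0, and 0 to 354), for the difference between the cell types 2 (0, 0, 0 and 98 with the block, and 0 to 203), and over both cell types 57 (3, 0, 12 and 328, and 0 to 264), in the same order. Of the 64 other pathway genes, 5 were called under hypoxia with VHL (3 after quantile normalization, 1 after centring, 0 to 7 with an array left out) and 4 under normoxia (2 to 4), and 0 were called for hypoxia in VHL- cells (0 to 1), in VHL+ cells (1 with the block, 0 to 2), for the difference (0 to 1) and over both (1 with the block, 0 to 2). Of the 9 genes described, 2 were called for hypoxia in VHL+ cells (0 after quantile normalization, centring or removal of dim clusters, 0 to 3 with an array left out), 1 over both cell types (0 in those settings, 4 with the block, 0 to 3), 0 in VHL- cells (1 with the block) and 0 for the difference (0 to 1). The replicate number was not taken as a pairing, because the correlations of deviations of samples with the same number ran from 0.0503 to 0.605. Between normoxia and hypoxia they were 0.605 in VHL- cells and 0.305 in VHL+ cells, and between the cell types 0.0503 to 0.210. With it as a block, IL1R1 in VHL- cells (limma adjusted p = 0.0476), IL6 in VHL+ cells (0.0118), and IL6ST (0.0341), IL18 (0.00380) and CSF1 (0.0413) over both passed. Values near 0 changed sign with the scaling. After quantile normalization hypoxia differed from normoxia in VHL- cells by 0.046 for IL6, 0.078 for IL6R and 0.043 for IL18, and in VHL+ cells by -0.030 for IL1B, and the difference between the cell types was -0.21 for LIF, -0.12 for IL6ST, -0.013 for IL1A, -0.0020 for IL1B and -0.16 for IL1R1. After centring these were 0.073, 0.079, 0.034, -0.086, -0.17, -0.10, -0.086, -0.043 and -0.14. With an array left out, hypoxia in VHL- cells ran from -0.27 to 0.19 for IL6, -0.10 to 0.13 for CSF1, -0.11 to 0.040 for IL6R and -0.26 to 0.10 for IL18, in VHL+ cells from -0.16 to 0.15 for IL1A and -0.061 to 0.11 for IL1B, and the difference between the cell types from -0.13 to 0.38 for IL6ST, -0.077 to 0.19 for LIF, -0.013 to 0.29 for IL1A and -0.0054 to 0.17 for IL1R1. The cause of these shifts was not tested.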

Other observations

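Among 11723 genes with 1 symbol that lay above the array median on at least 2 arrays, those whose log2 signal most resembled that of IL6 over the 8 arrays were TMEM98 (Pearson likeness 0.994), PNMA2 (0.991), PDLIM1 (0.990), MMP2 (0.990) and TGFBR2 (0.989). MMP2, a gelatinase, had a mean log2 signal of 10.91 in VHL- cells and 7.32 in VHL+ cells. TGFBR2, a receptor of TGF-beta, had 10.16 and 9.56, and TMEM98 had 8.61 and 7.04. The genes most like IL18 were INPP4B (0.967), SRGAP1 (0.964), ENTPD1 (0.962), MBD5 (0.960) and ZNF770 (0.959). INPP4B, a phosphoinositide phosphatase, had a mean of 6.05 in VHL- cells and 7.18 in VHL+ cells, and ENTPD1, an enzyme that degrades extracellular ATP, had 6.12 and 6.88. These points share arrays and split into VHL- and VHL+ cells, so that the likeness describes these 8 arrays and was not tested.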
